A study of Mus musculus with 9 samples.

Results

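The STAT and JAK genes described here were 6 transcription factor genes (Stat2, Stat3, Stat4, Stat5a, Stat5b and Stat6) and 3 kinase genes (Jak1, Jak2 and Jak3), taken by name. They are 9 of the 54347 genes in the table, and all 9 were among the 15532 genes that reached 1 CPM (scaled counts relative to a library's total) in at least 3 libraries. Members of both families outside these 9 were not analysed here. RNA-seq had been run on 9 libraries from mice. The 6 tumor libraries came from pancreatic neuroendocrine tumors of bi-transgenic INS-p25OE animals, in which Ins2-rtTA and tetOp-p25GFP together make p25, a truncated activator of the kinase Cdk5, in cells with an active insulin promoter when doxycycline is in the drinking water. The study calls M1, M2 and M3, whose titles carry the added word "Inulin", functional tumors, and M4, M5 and M6 non-functional tumors. The 3 islet libraries NI1, NI2 and NI3 are labelled normal islets, and the controls of the study were transgene-negative littermates housed with the others. M2 was from a female and the other 8 libraries were from males. The ages of the sequenced animals are not given in the sources used here.

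JAK kinases sit on the inner side of cytokine and hormone receptors, and phosphorylate the receptor and then a STAT protein once a ligand has bound. The phosphorylated STATs pair through their SH2 domains, enter the nucleus and bind DNA. In beta cells the route from prolactin and growth hormone receptors through Jak2 and the Stat5 proteins is known for its part in beta cell growth during pregnancy, and interferons act on islets through the STAT proteins as well. Activity of the pathway rests on phosphorylation, and an mRNA level does not measure it.

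One library went against its label in part. Cdk5r1, which encodes the p35 protein from which p25 is cut, stood at 149 to 401 CPM in the 6 tumors, at 18.4 CPM in NI2 and 12.5 CPM in NI3, and at 280 CPM in the library labelled NI1. Over the 15532 genes the library labelled NI1 and the tumor M6 differed by a root mean square of 0.37 on the log2(CPM + 0.5) scale, the smallest value among the 36 pairs of libraries. The next smallest was 0.55, between NI2 and NI3. Sums over gene lists did not place the library labelled NI1 on 1 side. Its 12 genes known to respond to tissue dissociation summed to 782 CPM, against 202 to 241 CPM in tumors, 3022 CPM in NI2 and 1650 CPM in NI3. Its B cell sum, given below, lay above all tumors, and its T cell and natural killer cell sum above all but M4. For tumors against islets, the counts of all genes and of members called are therefore given with and without this library. Among the members, so are the fold changes of Jak1, Stat4 and Stat6. Beta cell markers were counted in every library, since none of the 10 listed was at 0. They summed to 18859 to 117194 CPM in tumors and 122330 to 365572 CPM in islets, the lowest islet sum being that of the library labelled NI1. Library totals ran from 36468280 to 63637175 counts, and mitochondrial genes took 32.1% of counts in M4 and 1.76% to 8.41% in the others. All CPM values below were scaled by the TMM method of edgeR.

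Per length of exon, 8 of the 9 genes lay at moderate levels and Stat4 stood far below them. In islets Jak1, which serves interferon and interleukin-6 type receptors, was at 20.7 ± 4.83 CPM per kb (SD, n = 3). Stat5b followed at 13.2 ± 0.99, Stat3 at 12.9 ± 0.45, Stat2 at 9.29 ± 4.94, Jak2 at 9.14 ± 0.79 and Stat6 at 9.10 ± 0.33 CPM per kb. From Stat5b to Stat6 neighbours in this order overlapped, while every islet library of Jak1 (16.2 or more) lay above those of Stat5b (14.2 or less). Jak3 was at 3.56 ± 0.56 and Stat5a at 2.43 ± 0.34 CPM per kb, and these neighbours did not overlap, with 2.94 as the lowest value of Jak3 and 2.81 as the highest of Stat5a. Stat4 was at 0.760 ± 0.25 CPM per kb, so that its highest islet library (1.01) lay below the lowest of Stat5a (2.21). Among the 6 tumors the means were 15.4 ± 4.30 for Stat5b, 14.7 ± 3.31 for Jak1, 12.4 ± 1.16 for Stat3, 11.5 ± 1.65 for Stat6, 9.83 ± 1.53 for Stat2 and 9.25 ± 2.66 for Jak2. These 6 overlapped one another in range. Jak3 (3.69 ± 1.01) and Stat5a (3.60 ± 1.20) also overlapped, and Stat4 had 0.169 ± 0.13 CPM per kb. By mean level per kb Stat4 exceeded 13.8% of the 15520 tested genes with a known exon length in islets and 1.35% in tumors, whereas Stat5b exceeded 77.6% and 81.3%.

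**Figure D1:**
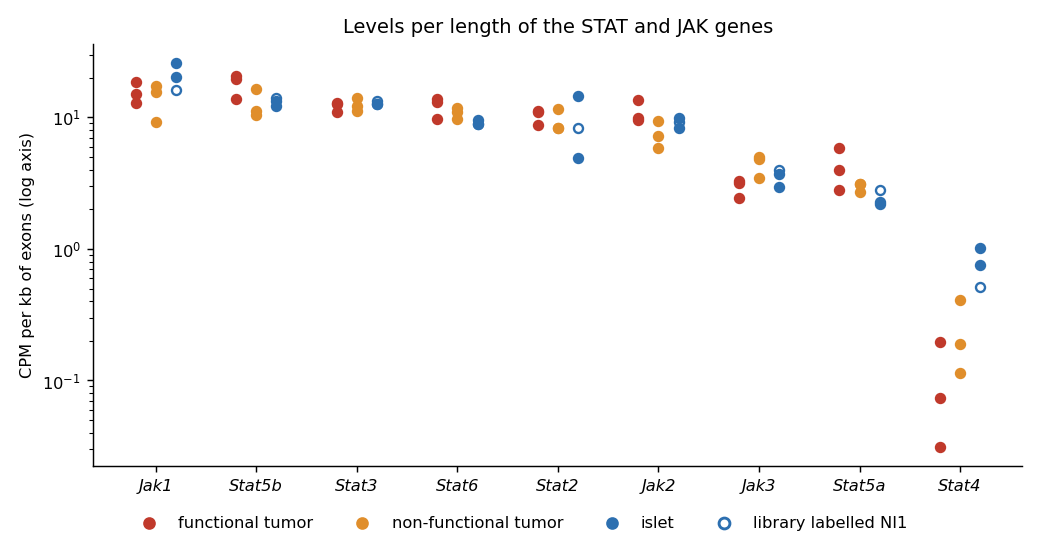
Level of each gene in CPM per kb of merged exons (log axis), 1 point per library, with functional tumors in red, non-functional tumors in orange, islets in blue and the library labelled NI1 as an open circle. Stat4 lies below every other gene, between 0.031 CPM per kb in M1 and 1.01 CPM per kb in NI2.

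None of the 9 genes passed the threshold (adjusted p under 0.05) between the 6 tumors and the islets by the quasi-likelihood test of edgeR, adjusted by the Benjamini-Hochberg method over all genes tested. The background was low, at 0.258% of genes called (0 higher and 40 lower). With p left unadjusted and under 0.05, the test counted 1655 genes as higher and 1419 as lower, and Stat4 was the 1 gene of the 9 among them. DESeq2 called 8.13% of genes in the same comparison and 0 of the 9. Without the library labelled NI1, edgeR called 8.51% of genes and again 0 of the 9. The 6 tumors lay above all islets for Stat6 and below all islets for Stat4. The background was 4.50% of genes for the first pattern and 3.17% for the second. Against NI2 and NI3 alone the tumors lay above for Stat5a and Stat6, beside 16.6% of all genes, and below for Stat4 and Jak1, beside 16.3%.

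Jak1 was high in islets and spread among tumors. It had 134, 108 and 92.6 CPM in M1, M2 and M3, 125, 67.2 and 113 CPM in M4, M5 and M6, and 117, 146 and 187 CPM in NI1, NI2 and NI3. All 6 tumors lay below NI2 and NI3, while M1 and M4 lay above the library labelled NI1. Tumors differed from islets by -0.49 ± 0.23 on the log2 scale (SE, adjusted p = 0.270 by edgeR), or by -0.64 once the library labelled NI1 was left out (adjusted p = 0.148). Jak1 lies on chromosome 4 of GRCm38, at chr4:101152367-101265282 on the minus strand, and touches Raver2 on the other strand by 4 bases.

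Jak2 (chr19:29251828-29313080, plus strand) transmits the signals of the prolactin, growth hormone and erythropoietin receptors. Its level was 49.3, 48.3 and 68.5 CPM in M1, M2 and M3, 36.6, 29.2 and 47.4 CPM in M4, M5 and M6, and 46.4, 49.7 and 41.8 CPM in NI1, NI2 and NI3. The islets fell between the highest functional and the lowest non-functional tumors, and the log2 fold change of all tumors against islets was 0.02 ± 0.24 (adjusted p = 0.977). The approximate 95% interval of that difference, taken from its standard error as -0.46 to 0.50, still allows changes of moderate size. Its sign turned with other methods or with 1 library left out.

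Jak3 works with the common gamma chain of interleukin receptors and is known mainly from lymphocytes. It had 17.6, 13.0 and 16.9 CPM in M1, M2 and M3, 26.7, 26.0 and 18.4 CPM in M4, M5 and M6, and 21.5, 20.0 and 15.7 CPM in NI1, NI2 and NI3. Tumors and islets overlapped, with a log2 fold change of 0.05 ± 0.26 (adjusted p = 0.936) whose sign turned when M4, M5 or NI3 was left out. Jak3 (chr8:71676296-71690575, plus strand) overlaps Insl3 on the same strand by 1362 bases, and 6.01% of its 75-base windows also occur in Insl3, so some reads can belong to either. Insl3 had 1.21 to 7.67 CPM.

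Stat2 (chr10:128270559-128292849, plus strand) joins the complex that type I interferons activate. Its level was 65.2, 52.1 and 66.1 CPM in M1, M2 and M3, 68.1, 49.4 and 48.8 CPM in M4, M5 and M6, and 49.4, 86.7 and 29.0 CPM in NI1, NI2 and NI3. NI2 held the highest and NI3 the lowest value of all 9 libraries, which put every tumor between them. The log2 fold change was 0.08 ± 0.30 (adjusted p = 0.906), and it was 0.57 without NI2 and -0.22 without NI3. The 17 listed interferon targets showed the same order in islets, with a summed level of 346 CPM in the library labelled NI1, 1019 CPM in NI2 and 199 CPM in NI3. Among tumors the order was not kept, although M4 held the highest value of both (a sum of 481 CPM). M1 and M3, with more Stat2 than M5 and M6, had sums of 266 and 242 CPM, against 410 and 361 CPM.

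Stat3, the factor of interleukin-6 type cytokines, was the steadiest of the 9 genes. It had 124, 105 and 120.3 CPM in M1, M2 and M3, 116, 106 and 135 CPM in M4, M5 and M6, and 128, 121 and 121 CPM in NI1, NI2 and NI3. Its highest tumor level was 1.28 times its lowest. Its log2 fold change was -0.06 ± 0.14 (adjusted p = 0.835), with an approximate 95% interval from -0.34 to 0.21.

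Stat6 acts downstream of interleukin-4 and interleukin-13. It was at 43.1, 57.4 and 60.3 CPM in M1, M2 and M3, at 52.3, 48.4 and 42.7 CPM in M4, M5 and M6, and at 39.2, 39.3 and 41.7 CPM in NI1, NI2 and NI3. Every tumor lay above every islet library, but M6 exceeded NI3 by little. The log2 fold change was 0.34 ± 0.17 (adjusted p = 0.286), and 0.32 without the library labelled NI1 (adjusted p = 0.334). Stat6 (chr10:127642986-127660957, plus strand) meets Nab2 tail to tail over 40 bases.

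Stat5a and Stat5b are close relatives that both answer prolactin and growth hormone, and per length Stat5b was the more abundant of the pair in every library. Stat5a was at 20.1, 42.0 and 28.2 CPM in M1, M2 and M3, at 22.1, 22.3 and 19.5 CPM in M4, M5 and M6, and at 20.1, 15.8 and 16.1 CPM in NI1, NI2 and NI3. The log2 fold change of all tumors against islets was 0.57 ± 0.27 (adjusted p = 0.276). All 6 tumors lay above NI2 and NI3, and 5 of 6 lay above the library labelled NI1. M1 exceeded that library by less than counting error, with exact 95% Poisson intervals of 18.9 to 21.4 CPM and 18.9 to 21.2 CPM. Stat5b was at 76.4, 114 and 109 CPM in M1, M2 and M3, at 62.0, 58.0 and 91.4 CPM in M4, M5 and M6, and at 78.4, 74.1 and 67.5 CPM in NI1, NI2 and NI3. Its groups overlapped, with a log2 fold change of 0.22 ± 0.24 (adjusted p = 0.640). For both genes the highest value was in M2, the library from the female, and without M2 the log2 fold change of Stat5a was 0.37 (adjusted p = 0.326).

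The counts of this pair depend on how reads were divided. Stat5a (chr11:100859351-100885169, plus strand) and Stat5b (chr11:100780731-100850724, minus strand) lie side by side on chromosome 11, and 387 windows of 75 bases, the read length, are identical in both. These are 5.12% of the windows of Stat5a and 6.99% of those of Stat5b, and the longest identical run is 324 bases across exons. The part of that run that falls in 1 coding exon of each gene, exon 8 of Stat5a-201 (chr11:100874339-100874490, plus strand) and exon 7 of Stat5b-202 (chr11:100798234-100798385, minus strand), is 152 bases long and is shown because a read from inside it fits both genes.

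Stat5a and Stat5b, 5′ to 3′ in the sense of the transcripts: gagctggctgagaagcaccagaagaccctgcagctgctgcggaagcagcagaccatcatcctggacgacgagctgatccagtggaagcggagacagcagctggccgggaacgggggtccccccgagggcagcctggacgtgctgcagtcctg

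The sum of both genes was 96.5, 156 and 138 CPM in M1, M2 and M3, 84.1, 80.3 and 111 CPM in M4, M5 and M6, and 98.5, 89.9 and 83.6 CPM in NI1, NI2 and NI3, and does not depend on that division. Stat5a also meets Stat3 (chr11:100885098-100939540, minus strand) tail to tail over 72 bases, and the library kit did not keep the strand.

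**Figure D2:**
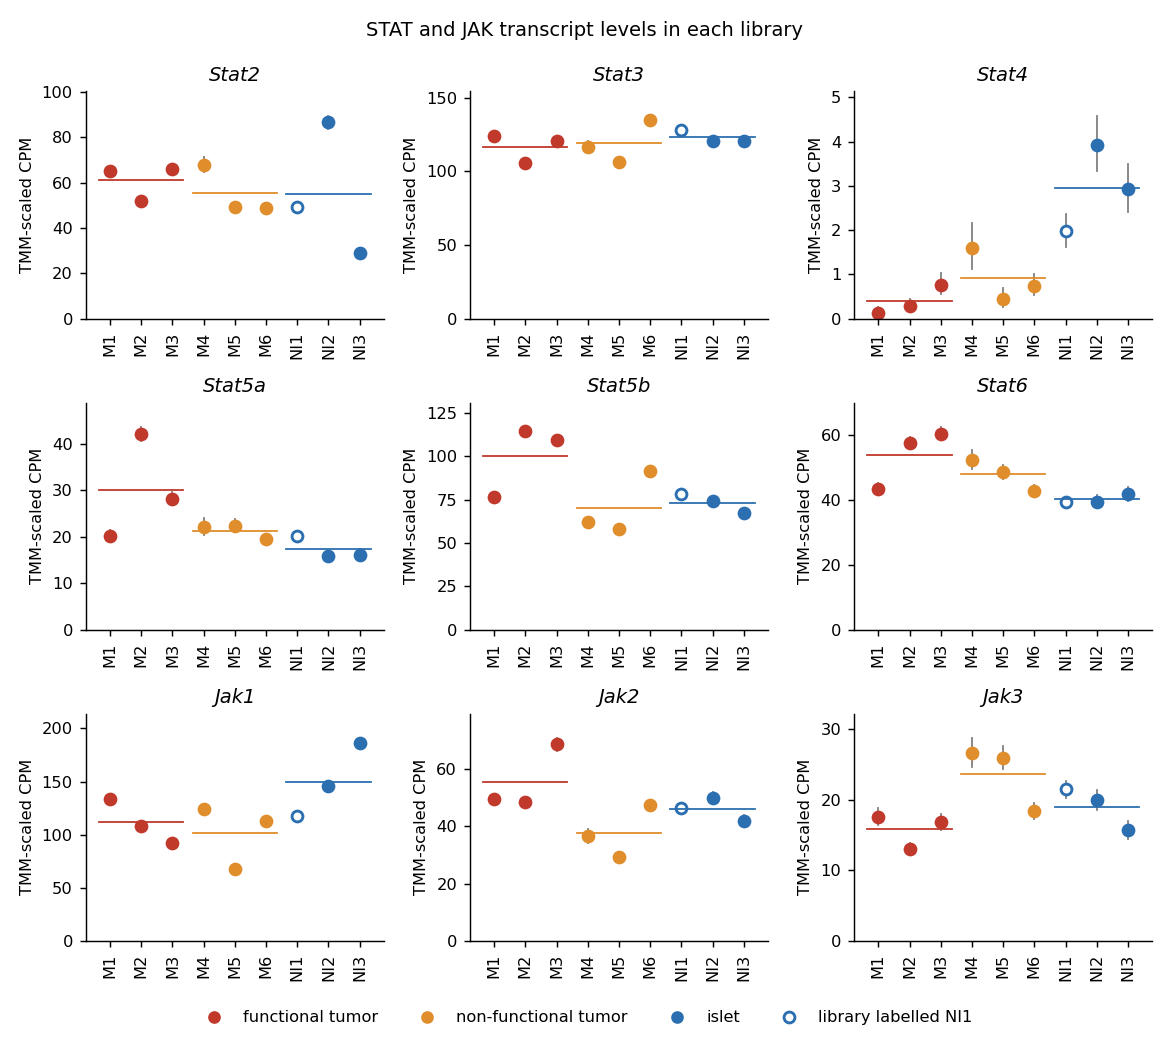
TMM-scaled CPM of each gene in each library, with grey bars for the exact 95% Poisson interval of the count (counting error only) and horizontal lines for the group means. Stat4 is lower in all 6 tumors (0.121 to 1.59 CPM) than in the islets (1.97 to 3.93 CPM), Stat6 is higher in all 6, and the other 7 genes overlap.

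Stat4 stood apart from the other 8 genes in its level and in its spread among tumors. It carries interleukin-12 signals in T cells and natural killer (NK) cells. Its counts were low, at 6, 20 and 42 in M1, M2 and M3, 40, 18 and 42 in M4, M5 and M6, and 115, 161 and 118 in NI1, NI2 and NI3. As levels these were 0.121, 0.283 and 0.764 CPM, then 1.59, 0.442 and 0.739 CPM, and then 1.97, 3.93 and 2.92 CPM. All 6 tumors lay below all 3 islet libraries, with M4 and the library labelled NI1 nearest to each other. Their exact 95% Poisson intervals, 1.13 to 2.16 CPM for M4 and 1.63 to 2.37 CPM for the library labelled NI1, overlapped. The tumor mean was 0.656 ± 0.52 CPM (SD, n = 6) and the islet mean 2.94 ± 0.98 CPM (n = 3).

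The log2 fold change of Stat4 in tumors against islets was -2.18 ± 0.67, a 4.53-fold lower fitted level, and its adjusted p of 0.162 by edgeR did not pass the threshold. The study names Stat4 among genes dysregulated in its tumors against normal islets, and likens this to earlier observations in human tumors. It chose these genes on these same samples, so the direction of Stat4 here is not independent evidence. Leaving out the library labelled NI1 gave -2.40 (adjusted p = 0.078), and leaving out M6 gave -2.22 (adjusted p = 0.132), both by edgeR. DESeq2, which the study used, gave -2.17 (adjusted p = 0.055) and did not pass the threshold here either. Over the 19 alternatives the log2 fold change ran from -2.64 to -1.91, with adjusted p from 0.052 to 0.582. The spread among tumors was 13.1-fold from M1 to M4, against 1.28-fold to 2.34-fold for the other 8 genes.

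Set against the others within a library and per length, Stat4 was the lowest of the 9 in every library. In tumors Jak1 stood 42.1-fold to 594-fold above Stat4, and in islets 19.9-fold to 34.2-fold. Stat5a, the nearest to it by group mean, stood 7.57-fold to 90.2-fold above it in tumors and 2.18-fold to 5.52-fold in islets. In M2 and M3 Jak3 (2.44 and 3.15 CPM per kb) was nearer than Stat5a (5.90 and 3.95 CPM per kb). For 6 of the other 8 genes every tumor ratio exceeded every islet ratio, and for Stat5b and Jak2 the ratios overlapped. These ratios share the low counts of Stat4 as their denominator. The centred profiles of Stat4 over the 9 libraries differed from those of the other members by a root mean square of 0.77 (Jak1) to 1.22 (Stat5a) on the log2 scale, and the closest pair among the others, Stat5b and Jak2, differed by 0.20.

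Markers of lymphocytes, like Stat4, were mostly at lower levels in tumors than in islets. The 15 listed T and NK cell genes summed to 4.11, 5.10 and 9.16 CPM in M1, M2 and M3, 32.5, 9.51 and 6.97 CPM in M4, M5 and M6, and 26.6, 74.6 and 66.7 CPM in NI1, NI2 and NI3. M4, the tumor with the most Stat4, also held the highest of these sums among tumors, above that of the library labelled NI1. Of the 15 genes 11 were tested, all 11 had a log2 fold change below 0 in tumors against islets (median -2.63, against 0.03 over all genes tested), 0 passed by edgeR (9 at an unadjusted p under 0.05, and 3 with adjustment but without the library labelled NI1), and 7 were lower by DESeq2. Among the defining genes, Cd3d was at 0 in M1, and 2 of the 15 were at 0 in M1 and 1 in M3. The 5 B cell genes summed to 31.5, 10.6 and 85.2 CPM in M1, M2 and M3, 42.3, 79.6 and 100.3 CPM in M4, M5 and M6, and 144, 147 and 145 CPM in NI1, NI2 and NI3. Among tumors this sum did not follow Stat4, since M4 lay below M3, M5 and M6. Of these genes, 2 (Pax5 and Ms4a1) were lower in tumors by edgeR, and 4 by DESeq2 or by edgeR without the library labelled NI1. The 9 macrophage genes had log2 fold changes above 0 (median 1.38). Of these, edgeR called 0 (all 9 at an unadjusted p under 0.05), or 3 as higher without the library labelled NI1, limma-trend called 0, and DESeq2 called 6 as higher. The part of these cells in the Stat4 difference was not tested. In bulk tissue fewer cells of a type and less RNA per cell cannot be told apart.

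The library labelled NI1 was closer to M6 than to NI2 and NI3 for 5 of the 9 members. For Stat5b, Stat6 and Jak3 it was closer to NI2, and for Stat4 it was closer to NI3, than to M6. On the log2(CPM + 0.5) scale this library and M6 differed by 0.22 or less in size for the 8 genes other than Stat4. They differed by 1.00 for Stat4, which was at 1.97 CPM in the library labelled NI1 and 0.739 CPM in M6. Its T and NK cell sum was likewise 26.6 CPM against 6.97 CPM in M6, and its B cell sum 144 CPM against 100.3 CPM.

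**Figure D3:**
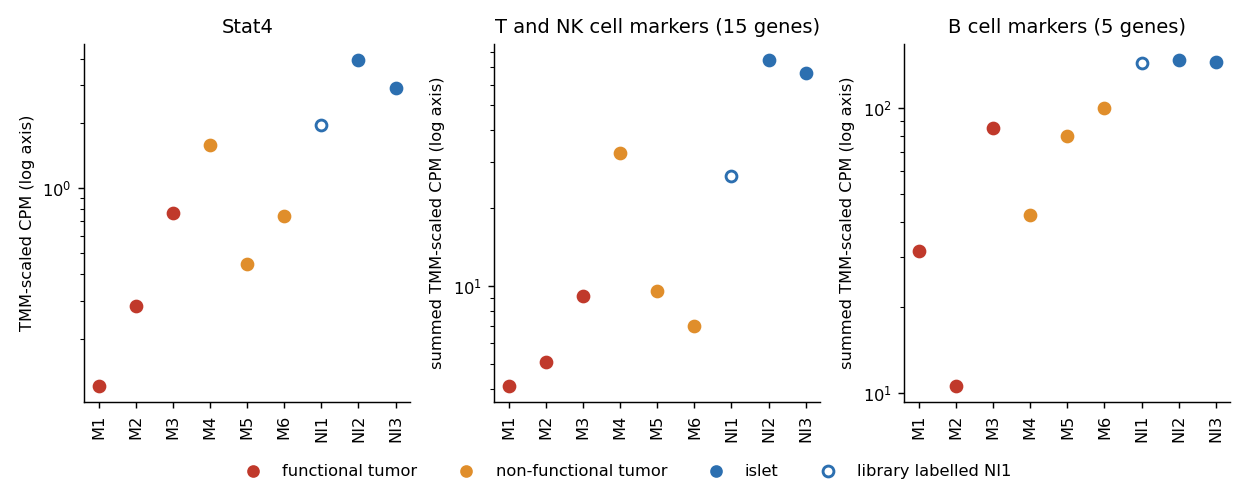
Stat4 (left), the summed level of 15 T and NK cell marker genes (middle) and of 5 B cell marker genes (right) in TMM-scaled CPM on log axes, 1 point per library. Stat4 and the B cell sum are higher in the 3 islet libraries than in all tumors, and the T and NK cell sum is too except that M4 (32.5 CPM) lies above the library labelled NI1 (26.6 CPM).

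The genes whose profile over the 9 libraries was most like that of Stat4 were Ptprc (root mean square difference 0.20), Myo1g (0.22), Sept1 (0.24), Ifi209 (0.25) and Il9r (0.26), where the profile of Stat4 itself varied by 0.92 about its mean. Ptprc encodes CD45, the phosphatase found on white blood cells, and Il9r the interleukin-9 receptor. Ptprc had 15.2, 15.3 and 20.4 CPM in M1, M2 and M3, 40.6, 16.2 and 20.0 CPM in M4, M5 and M6, and 37.8, 73.7 and 61.3 CPM in NI1, NI2 and NI3. Its log2 fold change in tumors against islets was -1.44 ± 0.33, a description only, since the gene was picked for its likeness to Stat4 over these same libraries. For Stat2 the most similar gene was Eif2ak2, the interferon-induced kinase PKR, at 0.19, and for Stat3 it was Gucd1, at 0.08. Vps26a came closest to Stat5a (0.11), Wwox to Stat5b (0.11), Gltp to Stat6 (0.08), Vamp7-ps to Jak1 (0.11), N4bp2l2 to Jak2 (0.10) and Zfp825 to Jak3 (0.09).

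Reads of Stat4 can be shared with 1 other gene. Stat4 (chr1:51987148-52107189, plus strand) overlaps the processed transcript Gm28177 on the same strand, and 19.5% of its 75-base windows also occur there. Gm28177 had 0 counts in 6 libraries and 8 to 13 counts in M2, M3 and NI2. With both genes added the tumors stayed at 0.121 to 1.59 CPM and the islets at 1.97 to 4.25 CPM, so the groups remained apart.

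With the tumors split by group, the fitted differences of Stat4 and Stat5a from islets were larger in the 3 functional than in the 3 non-functional tumors, and the test between the tumor groups, given further on, passed for neither. Both contrasts share the same islets. In functional tumors against islets the log2 fold change of Stat4 was -2.91 ± 0.79 (adjusted p = 0.118), and that of Stat5a 0.80 ± 0.28 (adjusted p = 0.164). Stat5a was above all islets in all 3 functional tumors, in M1 by less than counting error as given above, and without M2 its value was 0.48 (adjusted p = 0.309). In non-functional tumors against islets Stat4 was at -1.68 ± 0.76 (adjusted p = 0.347) and Stat5a at 0.30 ± 0.28 (adjusted p = 0.601). edgeR called 0 of the 9 genes in functional tumors, where it called 0.476% of all genes, and 0 in non-functional tumors, where it called 0.0%. Groups did not overlap for 3 of the 9 genes in functional tumors against islets (Stat4, Stat5a and Stat6), with a background of 29.0%, and for 2 of the 9 in non-functional tumors (Stat4 and Stat6), with a background of 16.0%.

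DESeq2, the tool named in the study's methods, called Stat4 lower in functional tumors than in islets, with a log2 fold change of -2.92 and an adjusted p of 0.011. It called 10% of all genes in that comparison and none of the other 8. Without the library labelled NI1 its value for Stat4 was -3.14 (adjusted p = 0.011), while edgeR gave -3.13 (adjusted p = 0.063). The T and NK cell genes were also lower there, 9 of 11 by DESeq2 and 1 of 11 by edgeR, which called 0.476% of all genes. All 10 that had no overlap lay below the islets, where 29.0% of all genes had no overlap in either direction.

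Between functional and non-functional tumors, Jak2 and Jak3 had differences of opposite sign, neither past the threshold. Jak2 was at 55.4 ± 11.4 CPM in functional and 37.7 ± 9.13 CPM in non-functional tumors (SD, n = 3 each), a log2 difference of 0.55 ± 0.23 (adjusted p = 0.480 by edgeR). Jak3 was at 15.8 ± 2.44 CPM in functional and 23.7 ± 4.59 CPM in non-functional tumors, a difference of -0.58 ± 0.24 (adjusted p = 0.480). Neither gene's groups overlapped, but 15% of all genes had that pattern, and M2 and M6 lay close for Jak2 at 48.3 and 47.4 CPM. The sum of Jak3 and Insl3 kept the order, with 14.6 to 19.2 CPM in functional and 20.9 to 33.6 CPM in non-functional tumors. Stat5b differed by 0.51 ± 0.23 (adjusted p = 0.494), Stat5a by 0.50 ± 0.28 and Stat4 by -1.23 ± 0.76, and these overlapped. The Stat4 difference was -0.59 without M4. Lymphocyte markers lay in the same direction as Stat4 and Jak3. All 11 tested T and NK cell genes had log2 differences below 0 (median -1.62), with sums of 4.11 to 9.16 CPM in functional and 6.97 to 32.5 CPM in non-functional tumors, and so had all 5 B cell genes (median -1.21). The 17 interferon targets had a median of -1.26, and 11 of them were lower in every functional than in every non-functional tumor. Of these 3 lists edgeR called 0 genes, with 5, 2 and 6 lower at an unadjusted p under 0.05, and DESeq2 called 1, 2 and 0 as lower. Their part in the differences of the members was not tested. edgeR called 0.0% of genes here, while 732 were higher and 866 lower when p under 0.05 was left unadjusted, and DESeq2 called 22 higher and 90 lower, none of them among the 9. Mitochondrial genes took 32.1% of counts in M4, which lies in the non-functional group, and their part in these differences was not tested.

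**Figure D4:**
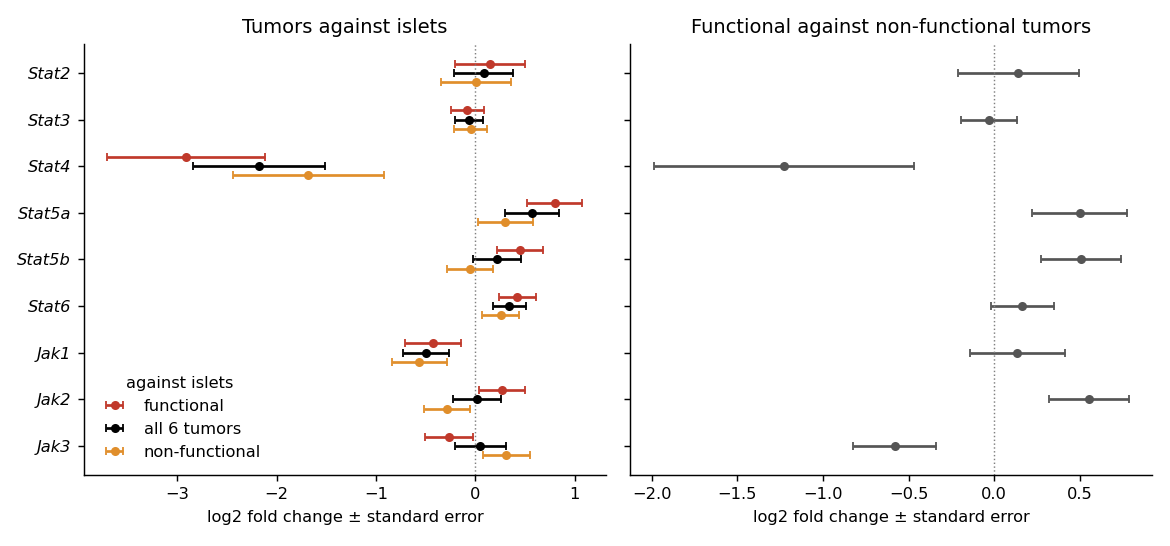
Log2 fold change with its standard error for each gene, in tumors against islets (left, all 6 tumors in black, functional in red, non-functional in orange) and in functional against non-functional tumors (right). Stat4 has the lowest values against islets (-2.91, -2.18 and -1.68), and on the right Jak2 (0.55) and Jak3 (-0.58) point in opposite directions.

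Around the members, few pathway genes passed the test of edgeR in tumors against islets, and those that did were lower. The direction was not one-sided in other fits. DESeq2 called Timp1, Il18r1, Igf1 and Epor higher as well, and edgeR without the library labelled NI1 called Igf1, Arg1, Retnla and Cntfr higher. Of 26 listed ligands only 6 were tested, the others being too low, and 0 were called by edgeR (1 higher at an unadjusted p under 0.05), by limma-trend or by DESeq2. The highest log2 fold changes among them were those of Lif (1.93, adjusted p = 0.281) and Cntf (1.72), and the lowest those of Ctf1 (-1.37) and Clcf1 (-0.71). Of 32 receptor genes 28 were tested, with a median of -0.24. Of these, edgeR called 0 (before adjustment p was under 0.05 for 2 that were higher and 5 that were lower), limma-trend 0, and DESeq2 1 as higher (Epor) and 1 as lower (Il2ra). The ends of that list were Epor, the erythropoietin receptor (2.03, adjusted p = 0.161), and Csf3r (0.98), and at the other side Il2rb (-1.96, adjusted p = 0.180) and Il2ra (-1.69), which encode chains of the interleukin-2 receptor that signals through Jak3.

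Inhibitors of the pathway, namely the SOCS and PIAS genes and phosphatases, were all tested (median 0.03, with 11 of 18 above 0). Of these 18 genes edgeR called 0 (before adjustment p was under 0.05 for 1 that was higher and 3 that were lower) and limma-trend 0, while DESeq2, and edgeR without the library labelled NI1, called Socs3 and Ptprc lower. Socs3, which Stat3 induces and which blocks JAK kinases, was lower in all 6 tumors (7.58 to 17.7 CPM) than in islets (26.9 to 87.2 CPM). Its log2 fold change was -1.81 ± 0.39 (adjusted p = 0.126), and without the library labelled NI1 -2.09 (adjusted p = 0.017). The 17 interferon targets had a median of -0.60 and 0 called by edgeR, limma-trend or DESeq2 (1 lower at an unadjusted p under 0.05, and Ifit1 lower by edgeR without the library labelled NI1), from Ifit1 (-2.46, adjusted p = 0.150) and Cxcl10 (-1.67) up to Irf1 (0.27) and Mx1 (1.56). NI2 held the highest value of Ifit1, 88.5 CPM against 3.45 to 10.8 CPM in the 8 other libraries.

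Among listed targets, Fos and Junb were lower (2 of 11 tested STAT3 targets), Ccnd2 was lower (1 of 9 STAT5 targets) and Fcer2a was lower (1 of 4 STAT6 targets), each by edgeR. In these 3 lists limma-trend called 2, 0 and 1 as lower. Fos stood at 1.41 to 3.92 CPM in tumors and 156 to 1045 CPM in islets, a log2 fold change of -7.78 ± 0.57 (adjusted p = 9.9e-04). Junb differed by -2.14 ± 0.31 (adjusted p = 0.024). Both are early response genes, and they also stand in the list of 12 genes known to respond to tissue dissociation, of which 10 were lower in tumors. Ccnd2, which encodes cyclin D2 of beta cell proliferation, was at 17.4 to 72.6 CPM in tumors and at 110.2, 655 and 822 CPM in NI1, NI2 and NI3 (log2 fold change -3.81 ± 0.62, adjusted p = 0.045). Fcer2a, the low-affinity IgE receptor of B cells, differed by -4.14 ± 0.67 (adjusted p = 0.044), beside the lower B cell genes given above. None of 5 tested STAT4 partners and targets was called by edgeR (1 higher at an unadjusted p under 0.05) or limma-trend, and 1 was higher by DESeq2 (Il18r1, adjusted p = 0.038). Il12rb1, Il12rb2, Ifng and Tbx21, which belong to the interleukin-12 response, did not reach the level needed for testing. Il18r1 had the highest value of that list (3.03, adjusted p = 0.244 by edgeR), followed by Il18rap (2.20), and Furin (-0.60) and Hlx (-0.49) the lowest. Lists were drawn up by function and share genes, and their medians stand beside a median of 0.03 over all genes.

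**Figure D5:**
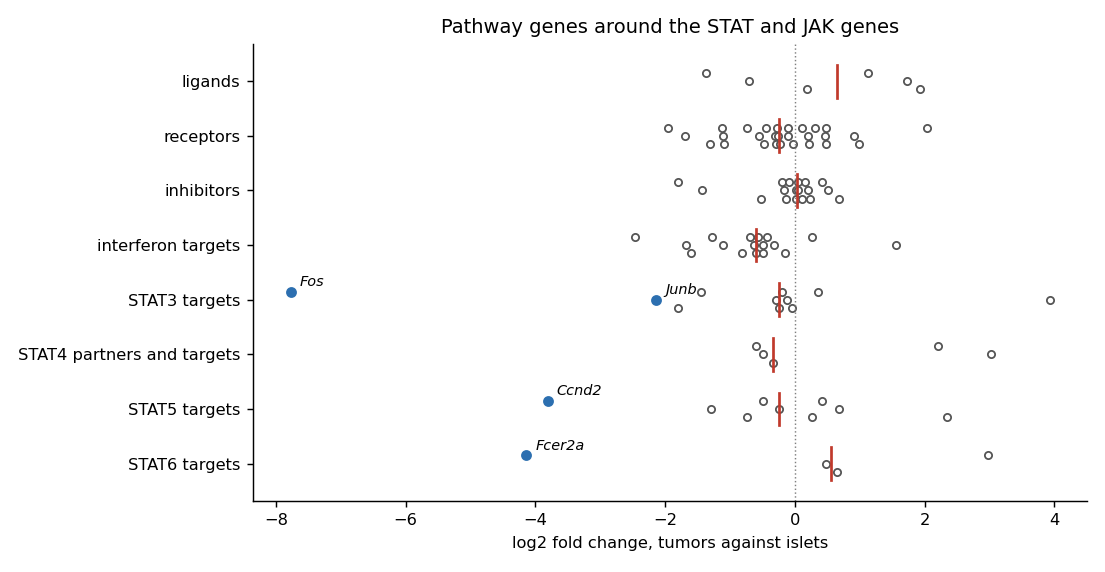
Log2 fold change in tumors against islets of each tested gene in 8 lists of pathway genes, 1 circle per gene, with the list median as a red bar. Filled blue circles mark the genes past the threshold of edgeR, Fos, Junb, Ccnd2 and Fcer2a, all of them lower in tumors.

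Many STAT proteins bind palindromes with the letters TTCNNNGAA, which read the same on both strands. Only these letters were searched, for every list alike. Sites with another spacing or of another form were not looked for, also not for STAT6 targets or interferon targets. The promoter windows of RefSeq (GRCm38.p6, 250 bases before to 50 after a start) held 12 windows of the 9 members, all 9 matched by symbol, and 0 of the 12 contained those letters, beside 8.30% of all 32851 windows. The letters occurred in 2 of 10 STAT3 targets with a window, 3 of 7 STAT5 targets and 2 of 6 STAT6 targets. They occurred in 3 of 8 STAT4 partners and targets and 4 of 14 interferon targets, beside 9.55% of all genes with a window. These shares were not tested. The stretches below, chosen after the windows had been searched, show the motif in capitals in the windows of Cish (chr9:107296629-107296678, plus strand), Socs3 (chr11:117969482-117969550, minus strand) and Irf1 (chr11:53769894-53769962, plus strand), to set beside the levels of these genes. Other windows with a match, among them those of Bcl6 and Il18r1, are not shown. A match is a description of letters and not a measured site.

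Cish: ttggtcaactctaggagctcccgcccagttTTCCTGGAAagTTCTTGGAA
Socs3: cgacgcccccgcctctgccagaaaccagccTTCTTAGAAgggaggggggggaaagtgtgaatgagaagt
Irf1: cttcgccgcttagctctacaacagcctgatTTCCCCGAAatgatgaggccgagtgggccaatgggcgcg

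Of these 3 genes Cish, an inhibitor that STAT5 induces, was at 12.6 to 59.5 CPM in tumors and 12.8 to 33.7 CPM in islets and overlapped. Irf1, an interferon response factor, was at 58.3 to 77.5 CPM in tumors and 47.3 to 60.7 CPM in islets and overlapped too. Socs3 alone of the 3 had groups that did not overlap, with all tumors below all islets, beside 3.17% of all genes tested.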

How the data were processed

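RNA from 9 libraries had been sequenced by the authors as single 75-base reads without strand. The authors trimmed reads with Trimmomatic 0.38 and ran Salmon 1.4.0 for mm10, as the submitters' processing notes name them. The deposited table, although named for TPM, holds estimated counts per Ensembl gene as whole numbers. Symbols, positions and merged exon lengths came from GENCODE vM21 (GRCm38), where 253 genes with 0.0121% of counts did not match. Genes that reached 1 CPM in 3 or more libraries were tested with edgeR 4.0.16 (R 4.3.3), with TMM scaling, glmQLFit and glmQLFTest, two-sided, adjusted by Benjamini-Hochberg over all 15532 genes at 0.05. The 6 tumors formed 1 group against 3 islet libraries, and a fit of 3 groups gave the other contrasts. Alternatives were DESeq2 1.42.0, limma-trend 3.58.1, other scalings and filters, a fit without mitochondrial genes and each library left out. DESeq2 without the library labelled NI1 was added after the data were seen. The scripts were tested on simulated data. Likeness of profiles was the root mean square difference of log2(CPM + 0.5), centred per gene. Named genes were all 9 members and, per list, those called or else the 2 highest and 2 lowest. Genes called in other fits or shown for their motif were named as well. Among the inhibitors only such genes were named, so the named ones do not stand for that list. The members and gene lists were chosen with earlier results of these data known. Each library is 1 labelled sample, and p-values measure only the spread between these samples. Poisson intervals cover counting error only. 1 listed marker gene is not reported here.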

Additional observations from a re-analysis of the deposited data

How the results depend on the processing

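The count of members called stayed at 0 under all alternatives in tumors against islets, in non-functional tumors against islets and in functional against non-functional tumors. In functional tumors against islets it was 0, and 1 (Stat4) by DESeq2 with all libraries and 1 by DESeq2 without the library labelled NI1. The count of all genes called moved with the tool and with the libraries. In tumors against islets it was 0 higher and 40 lower, 770 higher and 493 lower by DESeq2, 6 and 98 with no filter, 4 and 94 in the fit of 3 groups, 2 and 64 with scaling by totals, 829 higher and 492 lower without the library labelled NI1, 81 higher and 136 lower without M6, and 0 higher and 7 lower without NI3. Leaving out 1 of the other 6 libraries gave 12 (M5) to 69 (M4) lower and at most 1 higher. DESeq2 called 774 genes higher and 781 lower in functional tumors (7 and 67 by edgeR), and 240 higher and 152 lower in non-functional tumors (0 and 0 by edgeR, 1285 and 961 before adjustment). Scaling by library totals alone moved the median log2 fold change of all genes to 0.25 in tumors against islets, 0.38 in functional tumors against islets and 0.32 between the tumor groups. Under it Stat3 turned to 0.15, 0.28 and 0.28 in these comparisons, Jak3 to 0.081 in functional tumors against islets and Stat5b to 0.0063 in non-functional tumors against islets. Jak2 in all tumors turned to -0.029 by limma-trend and -0.0089 in the fit of 3 groups, Stat2 in non-functional tumors to -0.050 by DESeq2 without the library labelled NI1, and Stat3 between the tumor groups to 0.029 with no filter. With 1 library left out, values that changed sign ran as follows. In all tumors against islets Stat2 ran from -0.22 to 0.57, Jak2 from -0.13 to 0.12 and Jak3 from -0.070 to 0.15. In functional tumors Stat2 ran from -0.16 to 0.64. In non-functional tumors Stat2 ran from -0.30 to 0.50, Stat3 from -0.15 to 0.046 and Stat5b from -0.29 to 0.077. Between the tumor groups Stat3 ran from -0.13 to 0.067 and Jak1 from -0.12 to 0.31. The cause was not tested. Of the other results by alternative, 647 kept their direction and their side of the threshold. No member was past the threshold in the main fit, so keeping that side meant only staying uncalled.

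Replicate numbers are shared by functional tumors and islets only. Same-numbered libraries did not deviate together (correlations of -0.03, 0.003 and -0.13), so the numbers were not treated as pairs. With the replicate block, in a fit of these 6 libraries, 0 of the 9 members were called and Stat4 was at -3.22 (adjusted p = 0.181 by edgeR). Over all genes the block gave 10 higher and 24 lower calls, against 56 and 107 without it. Stat4 rests on 6 to 42 counts per tumor library, which limits how firmly its level there is known.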
